A study of Homo sapiens with 3 samples.

Results

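Of 606 broad H3K27me3 domains called in control cells on chromosome arms, 169 (27.9%) were still covered by siORCA peaks over at least 25% of their control-peak bases, and these 169 domains are described here. A broad domain was made by joining control peaks at most 3 kb apart and keeping joined stretches of at least 20 kb. The whole control list held 1708 such domains, and 1102 were left out of the arms: those on chromosomes 19, 20 and X and those touching a fixed interval around each centromere or acrocentric short arm. The word retained below means only that siORCA peaks were called over that share of a domain. The domains were thus chosen by the positions of control peaks and their overlap with siORCA peaks, so their share under siORCA peaks is a description and was not tested.

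The 3 samples came from U2OS, a human osteosarcoma cell line. Cells received the control Gl3, a customary name for an siRNA against firefly luciferase, or siORCA, which is directed at ORCA (also called LRWD1), and an input library was not analysed here. The labels give no further genotype, no time after transfection and 1 batch for all 3 samples. Each condition had 1 H3K27me3 library, so no difference between conditions could be checked against replicates or tested, and the read depth of neither library was given in the sources used here. On T2T-CHM13, 181157 peaks were called in the control and 105729 in siORCA. The authors' caller gave a fold over background to each peak, with a median of 2.73 for control and 3.29 for siORCA peaks. A given fold in one list therefore cannot be assumed to stand for the same level of the mark in the other.

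H3K27me3 is laid down by the methyltransferase complex PRC2, through its catalytic subunit EZH2 or EZH1, and is read by the CBX subunits of canonical PRC1. It often spreads over broad domains that can span several silent genes, in contrast to the narrow peaks of active promoter marks. ORCA binds the origin recognition complex and helps to hold it on chromatin, and it is known to be enriched in heterochromatin. Domains are named by position, since the gene and sequence tables at hand were built on GRCh38 and positions were not carried over between builds. For the same reason no sequence is printed.

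The 169 retained domains spanned 8.20 Mb, with 6.59 Mb under control peaks and 4.49 Mb under siORCA peaks. They made up 27.9% of the arm domains (95% Wilson interval 24.5 to 31.6%, counting error only, with domains taken as independent). Their share of control-peak bases under siORCA peaks had a median of 44.5%, with quartiles at 34.7 and 63.1%. It was under 50% in 97 of the 169 domains, at least 75% in 26 and at least 90% in 14. Over the 606 arm domains, 49.8% had a share of at least 10%, 11.9% of at least 50% and 2.31% of at least 90%. The other 437 domains had a median share of 5.89%, and 42 of them held no shared base.

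**Figure D1:**
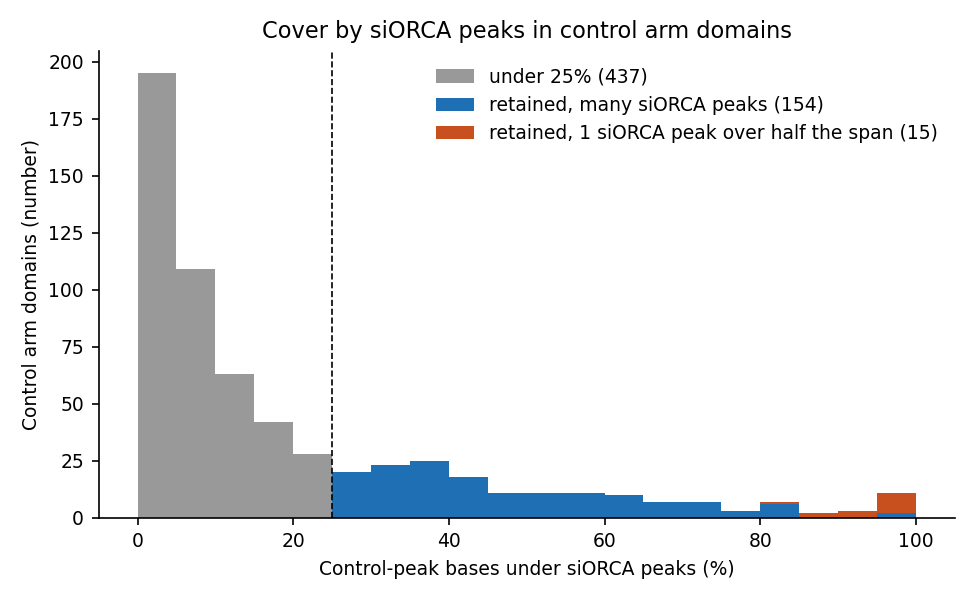
Number of control arm domains (vertical axis) by the percentage of their control-peak bases under siORCA peaks (horizontal axis, 5-point bins). The dashed line is the 25% limit. Colours separate the 437 other domains from the retained ones, which are divided by their largest siORCA peak. In 15 of them, 1 siORCA peak spans at least 50% of the domain. In the other 154, labelled as having many siORCA peaks, none does. Counts fall steadily through the limit with no gap there, and the 15 domains sit at shares from 83.4 to 100%.

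The limit of 25% fell inside a continuous run of shares. Just inside it, the domain on chromosome 1 from 12403604 to 12464171 had a share of 25.5%. The next ones up were 26.0% on chromosome 12 (131212968 to 131257099) and 26.7% on chromosome 1 (111831382 to 111894703). Just outside, shares of 24.8% were found on chromosome 16 (5680650 to 5764544) and chromosome 5 (134073659 to 134096687), followed by 24.5% on chromosome 2 (100919641 to 100968179). The domain on chromosome 5 ended shortly before a retained domain that ran from 134102648 to 134122703 and had a share of 58.9%. This last domain was also the shortest retained one, at 20.1 kb. The next shortest, on chromosome 18 from 47200407 to 47220546 and on chromosome 7 from 159712690 to 159732830, had shares of 100% and 54.8%.

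Retained domains were a small part of the marked arms. Control peaks covered 3.94% of the 2465 Mb of arms and siORCA peaks 0.855%. The retained domains held 6.78% of the control-peak bases of the arms and 21.3% of the siORCA-peak bases. On the arms outside all 606 domains, 9.71% of control-peak bases lay under siORCA peaks, close to the 8.11% pooled over the 437 other domains and below the 60.3% pooled over the retained ones. The longest domain held 19.3% of the siORCA-peak bases of the 169. Without it the pooled share was 54.3%, and the ratio of siORCA to control covered length was 0.632 in place of 0.681.

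The siORCA list had broad domains of its own at many of these places. Joined in the same way, siORCA peaks formed 133 arm domains of at least 20 kb (5.97 Mb). Of these, 98 (73.7%) overlapped a retained control domain, 2 overlapped another control arm domain and 33 overlapped neither. Seen from the control list, 97 of the 169 retained domains (57.4%) overlapped such a siORCA domain, against 2 of the 437 others (0.458%). The remaining retained domains were thus covered by siORCA peaks without a joined siORCA stretch of 20 kb. Of siORCA peaks at least 5 kb wide on the arms, 97 touched a retained domain, 0 touched another arm domain and 76 lay elsewhere. Both contrasts with the other domains follow in large part from the rule, which divided the domains by their cover by siORCA peaks.

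Retained domains were divided into 2 forms after their values had been seen. In 15 domains on 9 chromosomes, 1 siORCA peak spanned at least 50% of the domain. These 15 domains spanned 1.80 Mb, held 273 control peaks and 41 siORCA peaks, and had a pooled share of 98.4%. In the other 154 domains (6.402 Mb), siORCA peaks were more numerous and shorter, with 2152 siORCA peaks against 1607 control peaks and a pooled share of 48.6%. The number of siORCA peaks exceeded that of control peaks in 114 of these 154 domains and was smaller in 34. The 154 are called domains with many siORCA peaks below, although the division is by the largest siORCA peak. They held 5 to 53 siORCA peaks each, and the 15 held 1 to 10. The largest siORCA peak spanned from 2.33 to 47.7% of the domain in the 154 and from 56.8 to 100% in the 15, with no domain between 47.7 and 56.8%.

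The 6 longest retained domains, which made up 22.1% of their total length, included both forms: those on chromosomes 8 (865.5 kb), 4 and 5 lay under 1 long siORCA peak by this division, and the other 3 did not. The longest, on chromosome 8 from 86081226 to 86946695 (865.5 kb), lay under a single siORCA peak with a fold of 17.8, and its flanks of 50 kb on each side held no siORCA base outside control peaks. On chromosome 4 from 9123885 to 9392245 (268.4 kb), 112 control peaks covered 72.1% of the span, with a mean fold weighted by peak length of 3.42. There, 2 siORCA peaks covered 98.8% of the same span, with a mean fold of 7.77. On chromosome 8 from 11705425 to 11923539 (218.1 kb), 81 control peaks covered 77.0% of the span and 7 siORCA peaks covered 98.4%, with mean folds of 3.26 and 4.59. In both of these domains the gaps between control peaks were filled in the siORCA list, over 97.9 and 95.3% of their bases.

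On chromosome 5 from 17457039 to 17599699 (142.7 kb), each list called 1 peak over the whole domain, with a fold of 3.25 in the control and 10.8 in siORCA. Their outer edges differed by 32 bp in all. The domain on chromosome 6 from 161826663 to 162007408 (180.7 kb) had an inner part with a higher control fold. The 8 control peaks there that reached a fold of 4 (124.6 kb, folds of 4.23 to 4.65) were covered over 97.2% by siORCA peaks. Its 24 control peaks with a fold under 4 (27.9 kb) were covered over 9.16%. The siORCA peaks of at least 3 kb in this domain began at a regular spacing, with 6 steps of 5.32 to 5.78 kb followed by a step of 16.8 kb. The spacing was not particular to siORCA, since the 8 control peaks of higher fold were spaced alike. The first 3 of them began at -51.2, -45.65 and -40.1 kb from the domain centre. In siORCA the first 3 began at -51.5, -45.7 and -40.4 kb. The folds of these siORCA peaks lay between 7.96 and 9.84.

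The sixth longest domain, on chromosome 8 from 142928730 to 143068625 (139.9 kb), had the most siORCA peaks of these 6. Its 14 control peaks covered 90.05% of the span, and 41 siORCA peaks covered 50.5%, with a share of 54.6% and mean folds of 3.598 and 3.67. The only control peak in it that reached a fold of 4 (12.4 kb) lay under siORCA peaks over 85.8% of its length, against 51.2% for the 13 control peaks with a lower fold. In this domain and in that on chromosome 6, the control peaks of higher fold were thus the more fully covered. On chromosome 4, control peaks under a fold of 4 were covered as fully (99.2%) as those above it (100%).

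**Figure D2:**
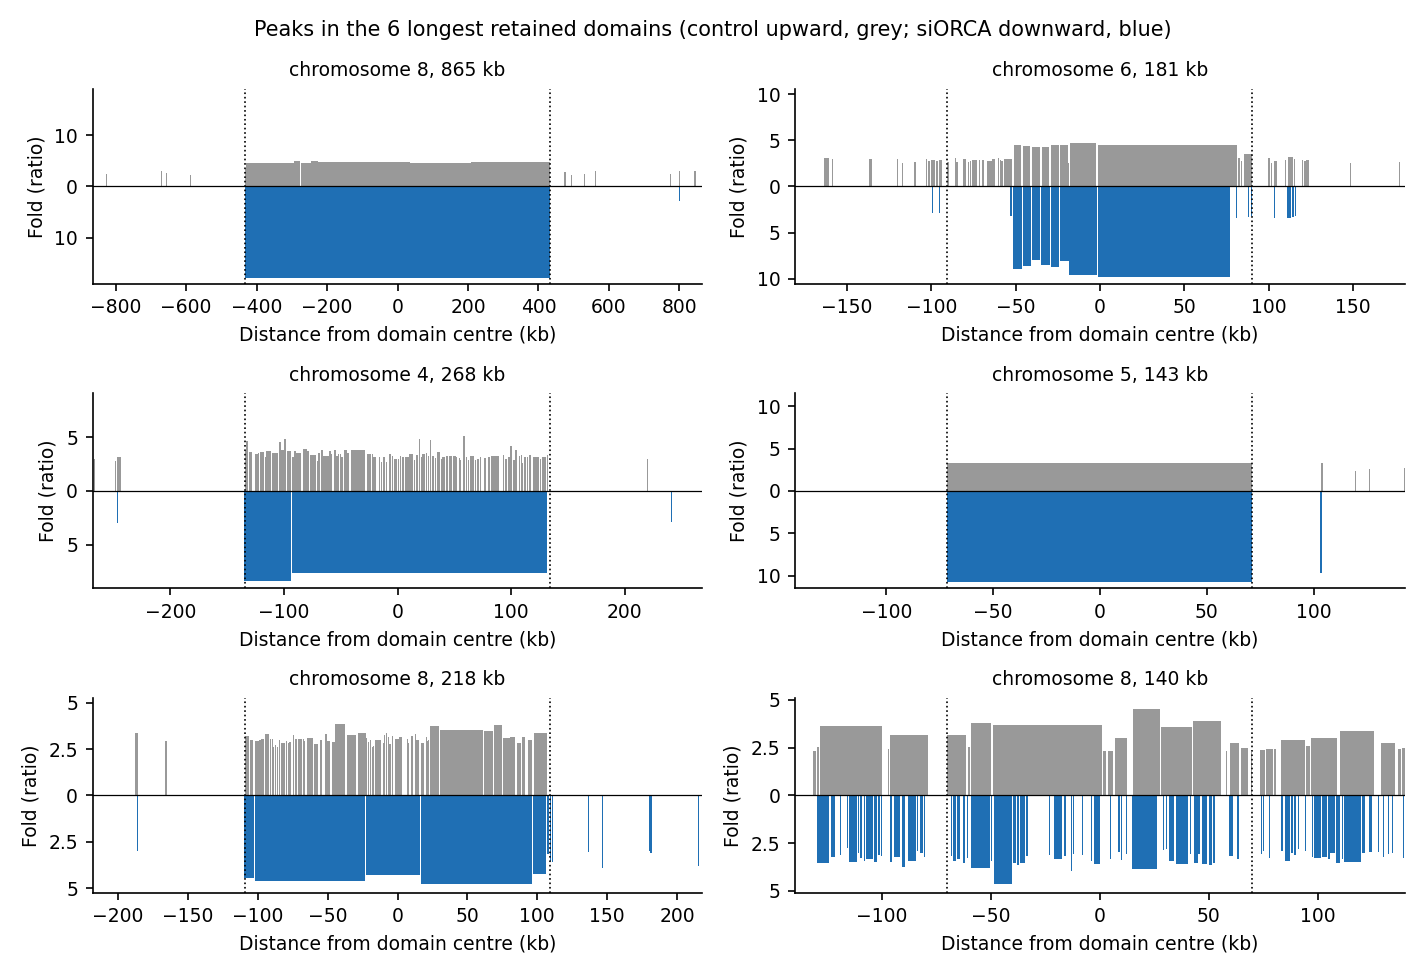
Peaks in the 6 longest retained domains, with distance from the domain centre in kb (horizontal axis) and the authors' fold as a ratio (vertical axis; control upward in grey, siORCA downward in blue); dotted lines mark the domain edges. The domains of 865, 268, 218 and 143 kb are filled by 1 to 7 siORCA peaks. The 181 kb domain holds regularly spaced peaks of both lists in its inner part, and the 140 kb domain holds 41 separate siORCA peaks.

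Shares of 100% or close to it were found at the ends of chromosomes as well as inside arms. The 5 largest shares belonged to the domains on chromosomes 5 and 8 given above and to 3 others. On chromosome 4 from 193458008 to 193534991, 0.0399 Mb from the last peak of the chromosome, 38 control peaks covered 31.4% of the span with a mean fold of 2.71. A single siORCA peak of 109.8 kb with a fold of 4.98 covered all of it, and the siORCA stretch joined at gaps of at most 3 kb ran 37.3 kb past its edges. On chromosome 10 from 134618484 to 134672725, 0.0853 Mb from the last peak, 22 control peaks covered 29.8% of the span with a mean fold of 2.81, and 1 siORCA peak with a fold of 4.68 covered nearly all of it. The neighbouring domain from 134684641 to 134731300 was similar, with 17 control peaks over 33.9% of the span and a share of 93.5%. As background, the ends of the long arms of chromosomes 4 and 10 are known to carry related arrays of a macrosatellite repeat. Whether these domains lie in them was not analysed here.

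On chromosome 18 from 47200407 to 47220546, 9 control peaks with a mean fold of 2.98 covered 46.003% of the span. A siORCA peak of 58.4 kb with a fold of 4.85 covered all of it, and the joined siORCA stretch extended 48.4 kb past the control edges. These 4 domains, on chromosomes 4, 10 and 18, had more siORCA than control bases: 77.0 against 24.2 kb, 54.2 against 16.2 kb, 44.3 against 15.8 kb and 20.1 against 9.27 kb. In all, 16 of the 169 retained domains had more siORCA than control bases, 7 of them among the 15 domains under 1 long siORCA peak. Of the 437 others, 0 did. This contrast follows in large part from the rule, which put domains with little siORCA cover of their control-peak bases among the others.

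Of the 5 highest mean control folds, 4 belonged to domains of 23.2 to 56.3 kb, and the fifth, 4.71, to the 865.5 kb domain on chromosome 8. The highest length-weighted mean was 6.03, on chromosome 8 from 144807901 to 144834161 (26.3 kb), where 5 siORCA peaks had a mean fold of 13.9 and the share was 77.4%. On chromosome 7, the domains from 102225168 to 102269280 and from 102354674 to 102377905 had mean control folds of 5.70 and 5.14 and siORCA folds of 5.59 and 4.13. They were the exceptions among the 15 domains under 1 long siORCA peak, since the other 13 had a higher siORCA than control fold. A higher siORCA fold was common in all sets, found in 139 of the 169 retained domains. Among the 404 other domains with a siORCA peak, 330 had it. On chromosome 15, the domain from 99067060 to 99123373 had a control fold of 5.68, a siORCA fold of 7.63 and a share of 86.9%. Further along that chromosome, a 22.6 kb domain from 99508614 to 99531257 was 1 peak in each list, with folds of 4.41 and 10.5 and a share of 96.3%.

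Among all retained domains the siORCA fold ranged from 3.10 to 17.8, with a median of 3.48, and the control fold from 2.59 to 6.03, with a median of 3.21. In the 154 domains with many siORCA peaks the median siORCA fold was 3.44, and 13 of them reached a fold of 4. All 15 domains under 1 long peak had a siORCA fold of at least 4.13, with a median of 6.02. Across the 169 domains, the control and siORCA folds had a Spearman correlation of 0.36, a description in which neighbouring domains share their library and region. Of the other 437 domains, 404 touched a siORCA peak, with a median siORCA fold of 3.17.

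**Figure D3:**
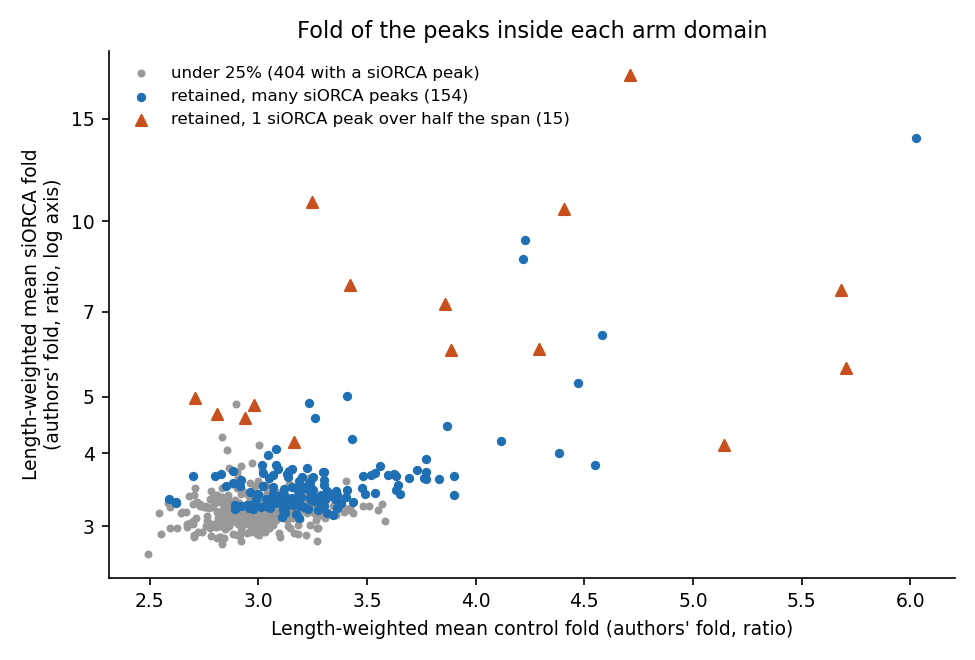
Length-weighted mean fold of the control peaks (horizontal axis, ratio) and siORCA peaks (vertical axis, ratio, log axis) inside each arm domain; grey points are the 404 other domains with a siORCA peak, blue points the 154 retained domains with many siORCA peaks and triangles the 15 under 1 long siORCA peak. The triangles lie at siORCA folds of 4.13 and above over control folds from 2.71 to 5.70, whereas most blue points lie beside the grey ones.

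The mean control fold was a measure that the rule did not use directly, and the share of domains retained differed along it. Of 58 arm domains with a mean control fold under 2.8, 5 (8.62%) were retained, and of 202 domains from 2.8 to 3, 21 (10.4%). The share was 27.2% of 206 domains from 3 to 3.2, 51% of 100 from 3.2 to 3.5 and 84.6% of 26 from 3.5 to 4. All 14 domains at 4 and above were retained (95% Wilson interval 78.5 to 100%). The domain at the end of chromosome 4 was an exception, retained with a mean control fold of 2.71. Over the 606 domains the Spearman correlation of control fold with the share was 0.54, given as a description, since both measures rest on the same control peaks.

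The same order held for single control peaks inside the retained domains. Without the 15 domains under 1 long peak, siORCA peaks covered 24.2% of the bases in control peaks with a fold under 2.5, 33.6% from 2.5 to 3, 49.95% from 3 to 4 and 77.9% at 4 and above. In the other 437 domains these values were 3.02, 5.26, 10.6 and 35.8%, the last over 6 peaks. Control peaks of equal fold class were thus covered to different degrees in the 2 sets of domains, which the rule separates by this cover.

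Length set the domains apart less. Retained domains had a median length of 32.3 kb, against 29.7 kb for the others, and 78 of the 169 were shorter than 30 kb. The share retained was 26.1% of domains from 20 to 30 kb, 27.6% from 30 to 50 kb, 33.0% from 50 to 100 kb and 32.4% at 100 kb and above, where 11 of 34 were retained. Control peaks filled a median of 77.4% of a retained domain and 67.01% of the others. Retained domains had a median of 9 control peaks with a median width of 1297 bp, and the others had 12 peaks of 830 bp.

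The surroundings of retained domains also held more siORCA peaks, in bases that the rule did not use. Some of these peaks were nevertheless counted by the rule, since they ran out of a domain into its flank. At the end of chromosome 4, from 193458008 to 193534991, the siORCA peak over the domain did so, and the flank cover was 39.0%. The flanks are therefore not separate from the rule. In the 50 kb on each side, siORCA peaks covered a median of 2.73% of the bases outside control peaks around retained domains and 0.665% around the others. On the arms outside all domains, siORCA peaks covered 0.334% of the bases outside control peaks. That value is pooled over bases, not a median. It also leaves out every domain, whereas the flanks could include neighbouring domains, so the values are not directly comparable. Control peaks, by contrast, covered a median of 20.5% of the flanks of retained domains and 24.97% of those of the others. The share of domains retained was 14.02% where siORCA covered under 1% of these flank bases and 69.7% where it covered 4% and above. Among domains with a mean control fold under 3, 9 of 209 (4.31%) were retained where this cover was under 2%, and 17 of 51 (33.3%) where it was higher. Among those with a control fold of 3.2 and above, the values were 34 of 71 (47.9%) and 53 of 69 (76.8%). Copy number in U2OS and mapping to repeats were not analysed, and their part in these values was not tested.

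**Figure D4:**
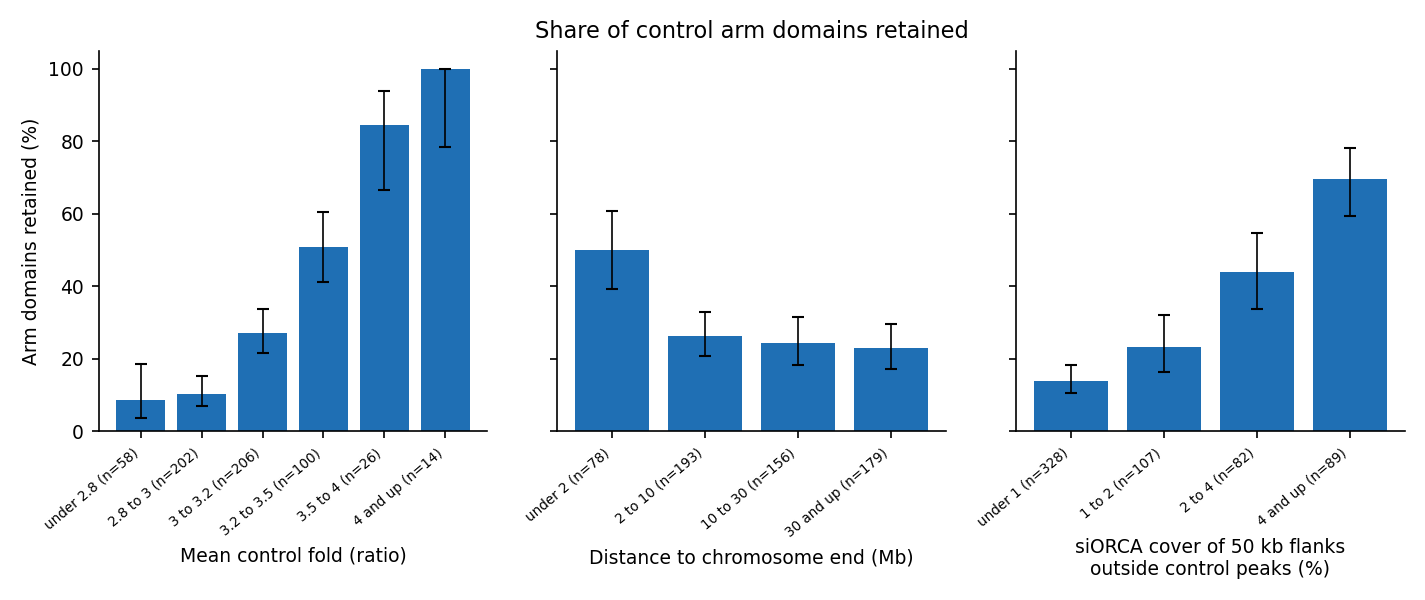
Percentage of control arm domains retained (vertical axis) by mean control fold as a ratio, distance to the chromosome end in Mb, and siORCA cover of the 50 kb flanks outside control peaks in percent; n is the number of domains and bars show 95% Wilson intervals. The share is higher in each fold class than in the one below, from 8.62% to 100%, is 50% within 2 Mb of an end, and is 69.7% at a flank cover of 4% and above.

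Gaps between control peaks differed in the same direction, but this does not stand apart from the rule. A siORCA peak that lies over 2 neighbouring control peaks also fills the gap between them. In the 154 retained domains with many siORCA peaks, 20.2% of gap bases lay under siORCA peaks, against 1.996% in the other 437 domains. In the 15 domains under 1 long peak it was 94.8%, a value largely fixed by their choice through that peak. Past the outer edges of the control domain, the joined siORCA stretch ended at or inside the edge in 82 of 169 retained domains, and in 366 of the 404 others that held a siORCA peak. This contrast too follows in part from the rule, since the others were set apart by their low siORCA cover. The joined siORCA stretch ran past the edges by a median of 31 bp and an upper quartile of 2147 bp over the 169 domains. This was far less than in the domains on chromosomes 4, 10 and 18 described above. Long overhangs were found both near chromosome ends and far from them, and a tie to ends was not tested. The domain on chromosome 10 from 134684641 to 134731300, 0.0268 Mb from an end, had an overhang of 68713 bp. The longest, 75975 bp, was on chromosome 1 from 227975302 to 227997209, 20.4 Mb from an end. On chromosome 7 from 74211 to 98318, 0.0742 Mb from an end, it was 0 bp.

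Along the length of retained domains, siORCA cover was highest in the middle. With each domain cut into 10 equal bins, it averaged 33.0% in bin 1, at the lower coordinate, 53.6% in bin 6 and 32.9% in bin 10. Control cover was flatter, with 69.9, 81.03 and 73.0% in the same bins. Without the 15 domains under 1 long peak, siORCA cover was 27.98, 49.2 and 28.8%. In the other 437 domains it was 4.95, 6.08 and 4.67%. The ends of retained domains were thus less covered than their middle in both lists, by a larger ratio in siORCA. Each domain begins and ends with a control peak by construction, which holds for no siORCA peak. The flatter control cover and the difference in ratio therefore follow in part from how domains were drawn.

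**Figure D5:**
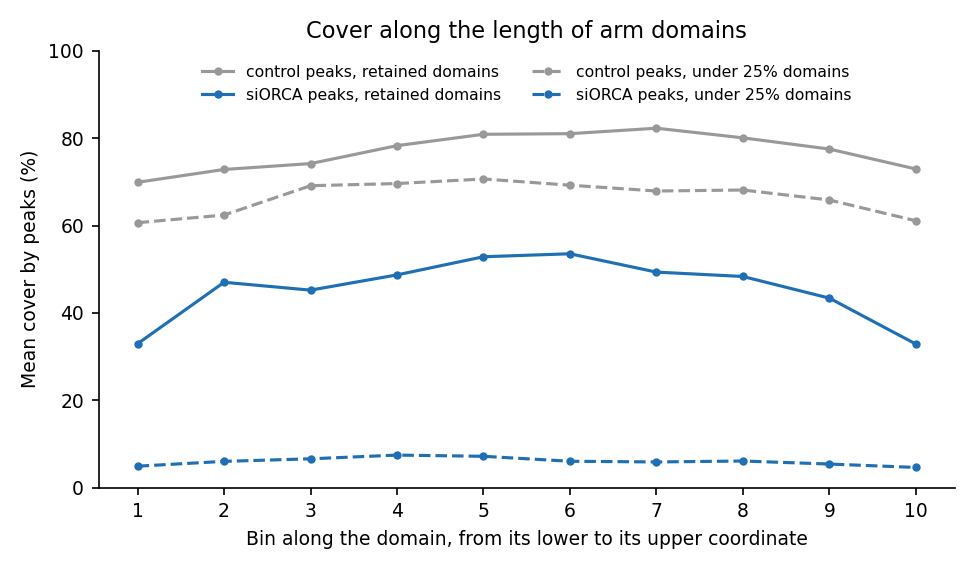
Mean percentage of bases under peaks (vertical axis) in each of 10 equal bins of a domain from its lower to its upper coordinate (horizontal axis), for control (grey) and siORCA (blue) peaks in 169 retained (solid) and 437 other (dashed) domains. In retained domains siORCA cover runs from about 33% at the ends to 53.6% in the middle, over control cover of 69.9 to 82.3%.

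Retained domains were found on each of the 20 chromosomes considered, in uneven numbers. Chromosome 8 had the most, with 25 of 46 arm domains (54.3%), and chromosome 22 had 13 of 21 (61.9%). Chromosome 1 had 17 of 84 (20.2%), chromosome 16 had 10 of 58 (17.2%), chromosome 12 had 11 of 59 (18.6%), chromosome 5 had 5 of 35 (14.3%) and chromosome 14 had 2 of 25 (8.00%). Chromosomes 13 and 21 had too few domains to compare, with 3 of 5 and 1 of 2. On chromosome 8, the short arm held 7 retained domains of 9, all between 6999866 and 12465360, with shares from 42.5 to 99.4%. Its long arm held 18 of 37.

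Retained domains had a retained nearest neighbour more often than the others did. Of 136 retained domains with another arm domain within 1 Mb, the nearest one was also retained for 90 (66.2%). Of 371 other domains with such a neighbour, the nearest was retained for 55 (14.8%). Joined at gaps of at most 1 Mb, the 169 domains formed 94 neighbourhoods, of which 54 held a single domain. The 3 with the most domains held 27 (15.98%). Neighbouring domains may be parts of 1 longer marked region, so that they are not independent.

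The neighbourhood with the most domains ran on chromosome 8 from 142784654 to 145903918, 0.355 Mb from the last peak of the long arm, and 14 of its 15 arm domains were retained. Their shares ranged from 28.3 to 77.4% with a median of 53.7%, and their siORCA folds from 3.26 to 13.9 with a median of 3.58. Over the whole 3.12 Mb, control peaks covered 30.8% and siORCA peaks 15.4%, and siORCA peaks covered 2.28% of the bases outside control peaks. The next, on chromosome 12 from 131212968 to 131753609, held 8 retained domains of 8, with shares from 26.0 to 73.9%. There siORCA peaks covered 14.9% of the bases outside control peaks. The third, on chromosome 22 from 49690946 to 50255173, held 5 of 5, with shares from 35.7 to 68.7% and siORCA folds from 3.201 to 4.01. The outer edges of these 3 neighbourhoods lay 0.355, 1.57 and 1.07 Mb from the last peak of their chromosome.

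Position along the arm differed between the 2 sets of domains. Within 2 Mb of a chromosome end, 39 of 78 arm domains (50%) were retained, against 26.4% from 2 to 10 Mb, 24.4% from 10 to 30 Mb and 22.9% farther in. Without chromosome 8 these shares were 47.9, 20.9, 24.2 and 22.6%. The domains within 2 Mb of an end also had a higher median control fold, 3.13 against 3.00 to 3.03 in the other classes. They also had more siORCA cover in their flanks outside control peaks, a median of 2.40% against 0.668 to 1.03%. Toward the centromeres the retained domains stopped short of the omitted intervals: the nearest was 3.204 Mb away, and 15 of the other domains but 0 of the retained ones lay within 2 Mb of an omitted interval. The part of position, fold and flank cover in retention was not separated by a test.

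On the omitted intervals and chromosomes, 607 of 1102 control domains (55.1%) met the same limit of 25%, against 27.9% on the arms. The 2 shares describe these lists, and the difference was not tested, since domains are not replicates of a condition.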

How the data were processed

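H3K27me3 ChIP-seq peaks of U2OS cells were compared between 1 control and 1 siORCA library, and the input was not analysed here. Per the labels' protocols, chromatin was fixed in 1% formaldehyde, sonicated and sequenced single-end over 101 cycles. The tools listed in the submitters' processing notes, without versions, are Bowtie2, SAMtools, Trimmomatic and bcl2fastq, with the build T2T-CHM13. Which peak caller was run, whether it used the input, and how duplicate and multiply aligned reads were treated is not given in the sources used here, and depth is unknown. Each deposited list holds, per peak, the authors' fold over background (a ratio), −log10 p and −log10 q, and a score that was not used. The lowest deposited −log10 q was 1.00 in both lists.

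Peaks were merged in bases within each list. Control peaks at most 3 kb apart were joined, and joined stretches of at least 20 kb that touched no omitted interval were kept; 1 domain crossed the edge of such an interval and was left out. Mean folds are weighted by the full length of every peak that touches a domain. Chromosome ends are the last peak end in either list. Flanks were 50 kb on each side. Coordinates are those of the files, counted from 1. Regions were named by a written rule: the 6 longest domains, the 5 largest shares, control folds and siORCA folds, the 3 domains on each side of the 25% limit, the 3 shortest and the 3 neighbourhoods with the most domains; other named regions were chosen after their values were seen. The members, lists and alternatives were chosen with earlier results of these data known. Alternatives were other gaps, lengths, shares, limits on fold and q, and numbers of peaks. Sharing over the whole span and leaving out domains within 2 Mb of an omitted interval or chromosome end were also used. Python 3.11.15, numpy 2.4.6, pandas 2.3.3 and scipy 1.17.1 were used. On simulated data, 100% of 200 domains were classed correctly, and a base-by-base count on chromosome 22 found 0 mismatches in 21 domains.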

Additional observations from a re-analysis of the deposited data

How the results depend on the processing

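No paired analysis was possible because each condition had 1 library, and for the same reason no library could be left out. The number of retained domains, the percentage of arm domains retained, the siORCA to control ratio of covered length and the median share were 169, 27.9%, 0.681 and 44.5% in the main setting. Joining gaps of at most 1 kb gave 101, 36.5%, 0.706 and 51.6%, and gaps of at most 10 kb gave 326, 13.7% and a median share of 39.8%. A −log10 q of at least 2 in both lists gave 59 and a ratio of 0.786. Peaks limited to a fold of at least 3 gave 75, 44.9%, 0.763 and 55.9%. A control list of as many peaks as the siORCA list, taken by −log10 p, gave 37.0%. Of the 169 domains, 53 were touched by those kept under the limit on q, 67 under that on fold, 120 under that on number and 81 and 145 with gaps of 1 and 10 kb. A share of at least 10% gave 302, 49.8%, 0.484 and 29.1%, and of at least 50% gave 72, 11.9%, 0.935 and 68.4%. Domains of at least 10 kb gave 410, 19.4% and 0.649, and of at least 50 kb gave 40, 32.8% and 0.778. Sharing measured over the whole span gave a ratio of 0.719. Leaving out domains within 2 Mb of an omitted interval or chromosome end gave 130, 25.3%, 0.685 and 42.4%. The settings chosen after seeing the data, without chromosome 8 and without the domains under 1 long siORCA peak, gave ratios of 0.619 and 0.541. Other limits change by construction which domains enter; for the limits on q, fold and number the cause was not tested. Depth was not given, so a domain without siORCA peaks was not shown to lack the mark.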
